A study of Homo sapiens with 4 samples.

Results

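The 8 genes described here encode enzymes of the mevalonate pathway: ACAT2, HMGCS1, MVK, PMVK, MVD, IDI1, FDPS and GGPS1. They were chosen by name, as the rows of a gene-level RNA-Seq table that carry one of these symbols and lie on a chromosome of the primary assembly, and they make up 8 of the table's 62077 rows. RNA-Seq was performed on FADU cells, an established epithelial line derived from a hypopharyngeal squamous carcinoma, with 1 library for each combination of oxygen state and TET1 knockdown state. TET1 is a dioxygenase that oxidizes 5-methylcytosine in DNA, and the study asked which genes depend on it when oxygen is low. The 4 libraries are N-scr (normoxia, scrambled control), N-si (normoxia, TET1 knockdown, written TET1-si), H-scr (hypoxia, scrambled control) and H-si (hypoxia, TET1-si). By the study's methods, all cells had been infected with a lentivirus that expresses a short hairpin RNA, either scrambled or directed at TET1. Hypoxia lasted 19 h at 1% O2 and 5% CO2. The methods list a single TET1 hairpin sequence, so an effect of that hairpin on other genes and an effect of TET1 loss cannot be told apart here.

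The mevalonate pathway builds isoprenoid units from acetyl-CoA. Acetyl-CoA is condensed to HMG-CoA, which is reduced to mevalonate, phosphorylated and decarboxylated to isopentenyl diphosphate, and this unit is isomerized and joined into farnesyl and geranylgeranyl diphosphate. Farnesyl diphosphate is the branch point: one arm leads through squalene to cholesterol, others to dolichol, ubiquinone and the prenyl anchors of small GTPases. In most cells the genes of the sterol arm are transcribed together under SREBP transcription factors, which are released to the nucleus when membrane sterol falls.

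The level of a gene is given in FPKM, a fragment number divided by the gene's exon length and by the library's mapped total, as the authors computed it. A change is a difference of log2(FPKM + 0.1) between 2 libraries, and a gene is counted as higher or lower from 1 on that scale, which is 2-fold. With 1 library per group no spread between replicates exists, so no test was made and every change is one between single cultures. The intervals given are 95% counting intervals (exact, Clopper-Pearson) from approximate read numbers, and cover counting error only. The recovered depths lay between 22540000 reads in H-si and 24600000 in N-si, and 15057 genes with a mean of at least 1 FPKM were compared, all 8 enzymes among them. TET1 itself had 0.331 FPKM for H-scr against 0.122 for H-si (about 77 and 26 reads), and 0.129 for N-scr against 0.0493 for N-si (28 and 11 reads). It was lower in the TET1-si library under either oxygen state, but so few reads make it a rough check of the labels.

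Because 6 of the 8 genes shared a pattern across the libraries, the sequences upstream of their start sites are shown for 3 of them and for the 2 that did not share it. RefSeq promoter windows (250 bases before to 50 after an annotated start, GRCh38.p14) were matched for 7 of the 8 genes by symbol, 12 windows in all. The lines give the 250 bases before the start, 5′ to 3′ on the gene's strand. Capitals mark CCAAT or its complement ATTGG, the letters of the box bound by NF-Y, a factor that works beside SREBP at sterol genes. MVK lies at chr12:109573544-109573793 (plus strand), MVD at chr16:88663092-88663341 (minus strand), FDPS at chr1:155308616-155308865 (plus strand), PMVK at chr1:154936720-154936969 (minus strand) and the second of 3 GGPS1 windows at chr1:235328320-235328569 (plus strand).
MVK: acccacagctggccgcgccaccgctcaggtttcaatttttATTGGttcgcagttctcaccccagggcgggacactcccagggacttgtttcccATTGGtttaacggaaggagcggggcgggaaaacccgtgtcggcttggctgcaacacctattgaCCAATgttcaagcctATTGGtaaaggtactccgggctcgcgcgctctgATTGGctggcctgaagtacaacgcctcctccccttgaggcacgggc
MVD: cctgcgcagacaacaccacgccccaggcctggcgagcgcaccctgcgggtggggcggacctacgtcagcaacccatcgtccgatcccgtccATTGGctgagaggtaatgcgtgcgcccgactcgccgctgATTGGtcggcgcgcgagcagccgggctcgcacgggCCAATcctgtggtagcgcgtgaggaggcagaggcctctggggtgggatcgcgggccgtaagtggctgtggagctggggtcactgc
FDPS: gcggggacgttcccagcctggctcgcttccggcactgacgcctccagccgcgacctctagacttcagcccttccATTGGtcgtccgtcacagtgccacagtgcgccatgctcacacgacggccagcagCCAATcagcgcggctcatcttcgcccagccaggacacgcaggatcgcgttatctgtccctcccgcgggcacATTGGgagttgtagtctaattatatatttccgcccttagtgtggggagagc
PMVK: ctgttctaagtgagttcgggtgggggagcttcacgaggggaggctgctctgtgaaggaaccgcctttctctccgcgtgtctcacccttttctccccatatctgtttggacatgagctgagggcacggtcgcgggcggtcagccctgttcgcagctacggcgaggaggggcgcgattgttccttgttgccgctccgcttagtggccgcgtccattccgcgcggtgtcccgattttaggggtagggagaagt
GGPS1: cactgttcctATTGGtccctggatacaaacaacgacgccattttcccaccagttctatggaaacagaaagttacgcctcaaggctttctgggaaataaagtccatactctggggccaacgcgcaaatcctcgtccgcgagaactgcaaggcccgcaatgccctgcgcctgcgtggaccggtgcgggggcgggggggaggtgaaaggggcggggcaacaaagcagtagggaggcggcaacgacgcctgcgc

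MVK held 5 matches to CCAAT on either strand, MVD and FDPS held 3 each, the GGPS1 window held 1 and PMVK held none. Over whole windows, 6 of the 7 genes had CCAAT in at least 1 window and 5 had 2 or more in a single window, the other 2 being HMGCS1 and IDI1 beside those shown. In IDI1 the matches include CCAATTGG, where both strands of the same letters count. Among all 35116 windows of 27305 genes, 34.6% held CCAAT and 10.8% held it at least 2 times. The GC box GGGCGG was found in windows of 7 of the 7 genes and in 45% of all windows. TCACNCCAC, a form of the sterol regulatory element, was found in none of the 7 and in 1.13% of all windows, and its shorter core TCACNCC in 3 of the 7 and in 15.5%. ACGTG, the core letters of the hypoxia-inducible factor site, was found in none of the 7 and in 21.4% of all windows, and the E-box CACGTG in none and in 7.26%. All motifs were searched on both strands, genes with several windows had more chances of a match than genes with 1, and TCACNCC lies within TCACNCCAC and ACGTG within CACGTG.

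Of the 8 enzymes, 6 were high in H-scr and low in the other 3 libraries. ACAT2, HMGCS1, MVK, MVD, IDI1 and FDPS were each at least 2-fold higher in H-scr than in every other library, as were 2.08% of the genes compared. None of the 8 stood that far above the rest in N-scr (0.704% of the genes compared), in N-si (0.790%) or in H-si (4.58%). The level in H-scr was between 3.75 times (MVK) and 6.66 times (ACAT2) that of the next library. Among N-scr, N-si and H-si the same 6 genes spread over only 1.22-fold (MVD) to 1.58-fold (MVK and FDPS). The remaining enzymes went their own ways: PMVK was high in both TET1-si libraries, and GGPS1 was somewhat higher in both hypoxia libraries. In bulk RNA, a smaller number of cells with high levels and a lower level per cell cannot be told apart.

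**Figure D1:**
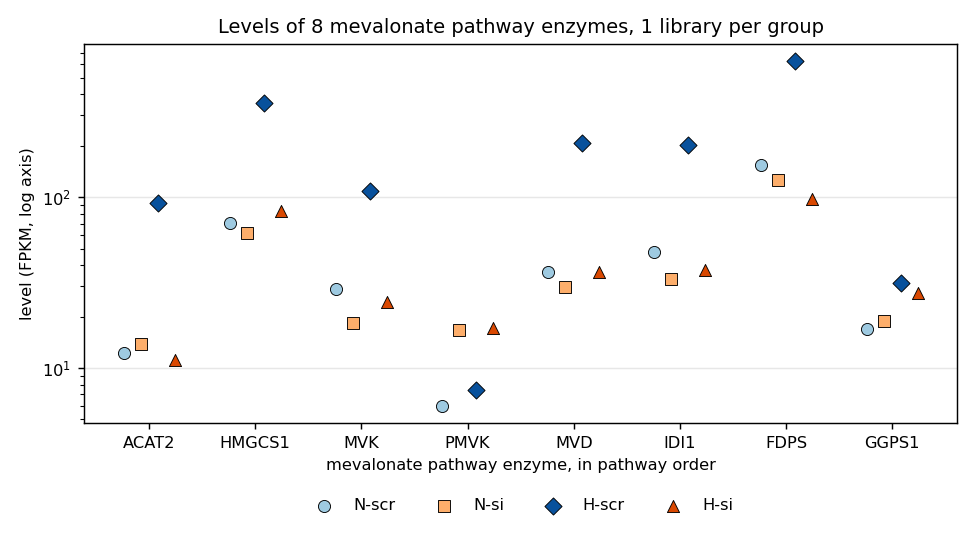
Level of each enzyme in FPKM (log axis) in the 4 libraries, with the genes in pathway order and 1 point per library. The H-scr diamond stands above the other points for ACAT2, HMGCS1, MVK, MVD, IDI1 and FDPS, whereas PMVK is highest in the TET1-si libraries and GGPS1 in the hypoxia libraries.

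ACAT2 (ENSG00000120437, chromosome 6, 160181360 to 160200144, plus strand, hg19) is the cytosolic thiolase that joins acetyl-CoA units to acetoacetyl-CoA, the first step. The H-scr library held 92.1 FPKM on about 2956 reads, whereas H-si held 11.1 FPKM on 327, N-scr 12.2 on 365 and N-si 13.8 on 444. It went from the 50.9 percentile of the genes compared in N-scr to the 90.2 percentile in H-scr. In scrambled cells the hypoxic level was 7.57-fold the normoxic one (log2 2.91, interval 2.76 to 3.08), the largest such change of the 8. Between the TET1-si libraries the change was -0.31 (interval -0.53 to -0.11), in the opposite direction. The deposited locus overlaps that of SOD2, a mitochondrial superoxide dismutase, by 2202 bp and that of TCP1, a chaperonin subunit on the other strand, by 615 bp, and the sources used here do not state that reads kept their strand. SOD2 was also highest in H-scr, at 192 FPKM against 34.7 in H-si, 81.9 in N-scr and 57.1 in N-si. TCP1 was lower in both hypoxia libraries, at 291 and 212 FPKM with the scrambled and TET1 hairpins, against 574 and 429 under normoxia. The share of reads that ACAT2 may hold from them was not tested.

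HMGCS1 (ENSG00000112972, chromosome 5, 43289497 to 43313614, minus strand) is the cytosolic HMG-CoA synthase. It was the second highest of the 8 in every library, with 356 FPKM for H-scr, 83.3 for H-si, 70.8 for N-scr and 61.9 for N-si. The hypoxia response was 2.33 in scrambled cells (interval 2.30 to 2.36, 5.03-fold) and 0.43 in TET1-si cells (interval 0.39 to 0.47). The long non-coding RNA CTD-2636A23.2 on the other strand overlaps HMGCS1 by 1445 bp, and it too was highest in H-scr, at 13.0 FPKM against 2.13 to 3.55 FPKM in the other libraries.

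MVK (ENSG00000110921, chromosome 12, 110011060 to 110035067, plus strand) phosphorylates mevalonate. It measured 108 FPKM for H-scr, 24.4 for H-si, 28.8 for N-scr and 18.2 for N-si. The hypoxia response was 1.90 in scrambled cells (interval 1.83 to 1.98, 3.75-fold), the smallest of the 6, and 0.42 in TET1-si cells (interval 0.31 to 0.54). Under normoxia MVK also had the lowest TET1-si change of the 8, -0.66 (interval -0.77 to -0.55). Its 50 nearest protein-coding genes had a median of -0.27 in that comparison, with 11 of 50 above 0, beside 60.3% of the genes compared. Less this median MVK was at -0.39. With the median of its own neighbours subtracted, IDI1, at -0.62, was the lowest of the 8. MMAB, an adenosyltransferase of vitamin B12 metabolism, starts on the other strand and overlaps MVK by 620 bp. MMAB ordered the libraries as MVK did except that N-si was above H-si, with 79.6 FPKM for H-scr, 19.7 for H-si, 32.8 for N-scr and 21.4 for N-si.

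PMVK (ENSG00000163344, chromosome 1, 154897210 to 154909467, minus strand) adds the next phosphate, and it departed from the enzymes on either side of it. It measured 17.1 FPKM for H-si and 16.7 for N-si, against 7.47 for H-scr and 6.0 for N-scr, on about 303, 324, 145 and 109 reads, the fewest of the 8 in every library. Both TET1-si libraries were above both scrambled ones, and the oxygen states hardly differed. TET1-si was 2.79-fold higher under normoxia (log2 1.46, interval 1.15 to 1.80) and 2.28-fold higher under hypoxia (1.18, interval 0.90 to 1.48). The counting interval of the hypoxia response spanned 0 in scrambled cells (0.31, -0.06 to 0.69) and in TET1-si cells (0.03, -0.20 to 0.26), so neither was detectable at this depth.

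MVD (ENSG00000167508, chromosome 16, 88718343 to 88729569, minus strand) decarboxylates mevalonate diphosphate to isopentenyl diphosphate. It measured 206 FPKM for H-scr, 29.8 for N-si and nearly equal levels of 36.3 for H-si and 36.2 for N-scr. The hypoxia response was 2.50 in scrambled cells (interval 2.42 to 2.59, 5.69-fold) and 0.28 in TET1-si cells (interval 0.17 to 0.40).

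IDI1 (ENSG00000067064, chromosome 10, 1085848 to 1095110, minus strand) isomerizes isopentenyl diphosphate to dimethylallyl diphosphate. It measured 201 FPKM for H-scr, 37.2 for H-si, 48.0 for N-scr and 33.1 for N-si. The hypoxia response was 2.06 in scrambled cells (interval 2.01 to 2.12, 4.18-fold) and 0.17 in TET1-si cells (interval 0.08 to 0.26). Its neighbour and paralog IDI2, 14048 bp away, stood between 1.47 and 2.09 FPKM in the 4 libraries and was not 2-fold changed in any comparison.

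FDPS (ENSG00000160752, chromosome 1, 155278539 to 155290457, plus strand) makes farnesyl diphosphate, the branch point, and is the target of nitrogen-containing bisphosphonates. It was the most abundant of the 8 in every library, with 623 FPKM for H-scr, 97.5 for H-si, 154 for N-scr and 125 for N-si. The hypoxia response was 2.01 in scrambled cells (interval 1.97 to 2.06, 4.04-fold) and -0.36 in TET1-si cells (interval -0.43 to -0.29). H-si stood at 0.632 times N-scr, the lowest such ratio among the 8. Rows for FDPS pseudogenes, 7 in all, held at most 0.101 FPKM. The antisense RNA RUSC1-AS1 overlaps FDPS by 3804 bp and was highest in H-scr, at 70.5 FPKM against 16.3 to 19.3 FPKM elsewhere. The row RP11-21N7.2 overlaps FDPS by 553 bp and was also highest there, at 389 FPKM against 67.4 to 114 FPKM. The protein-coding neighbour RUSC1, which lies 229 bp away and does not overlap FDPS, had a hypoxia response of 0.24 in scrambled cells.

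GGPS1 (ENSG00000152904, chromosome 1, 235490665 to 235507847, plus strand) makes geranylgeranyl diphosphate, the prenyl donor for many small GTPases, and sits off the sterol arm. It measured 31.6 FPKM for H-scr, 27.6 for H-si, 16.9 for N-scr and 18.7 for N-si. Both hypoxia libraries were above both normoxia ones. The hypoxia response was 0.90 in scrambled cells (interval 0.80 to 1.01), just short of 2-fold, and 0.55 in TET1-si cells (interval 0.45 to 0.66). ARID4B, a chromatin protein gene on the other strand, overlaps GGPS1 by 870 bp and was higher in the TET1-si libraries, with 27.1 FPKM for H-si and 23.4 for N-si against 18.6 for H-scr and 13.4 for N-scr.

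The spacing of the enzymes changed with these shifts. From the highest to the lowest enzyme the levels spanned 25.7-fold in N-scr and 83.4-fold in H-scr, in both cases from FDPS to PMVK. In the TET1-si libraries the span ran from FDPS to ACAT2 and was 9.06-fold in N-si and 8.79-fold in H-si. The sum over the 8 was 1625 FPKM for H-scr, against 334 for H-si, 373 for N-scr and 317 for N-si.

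The first comparison asked how hypoxia acted on the enzymes in scrambled cells. Of the 8, 6 were at least 2-fold higher in H-scr than in N-scr, as were 12.9% of the genes compared, and none was 2-fold lower, as were 4.53%. The median change of the 8 was 2.04, beside 0.05 over the genes compared. All 8 changes were above 0, as were 52.9% of the genes compared, and they ran from 0.31 (PMVK) to 2.91 (ACAT2).

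The same comparison in TET1-si cells gave small changes. None of the 8 was 2-fold higher in H-si than in N-si, as were 12.5% of the genes compared, and none was 2-fold lower, as were 8.66%. The changes ran from -0.36 (FDPS) to 0.55 (GGPS1) with a median of 0.23, beside 0.03 over the genes compared.

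The next comparison set TET1-si against scrambled cells within each oxygen state. Under hypoxia 6 of the 8 were at least 2-fold lower in H-si than in H-scr, as were 8.35% of the genes compared, and 1, PMVK, was 2-fold higher, as were 12.0%. ACAT2 was 8.30-fold lower, FDPS 6.39-fold, MVD 5.68-fold, IDI1 5.4-fold, MVK 4.42-fold and HMGCS1 4.27-fold. GGPS1 changed by -0.20 (interval -0.29 to -0.11), and the median of the 8 was -2.28, beside 0.10 over the genes compared. Under normoxia only PMVK passed 2-fold, in the higher direction, as did 12.1% of the genes compared. None of the 8 was 2-fold lower there, as were 5.56%, and the median was -0.24 beside 0.15. The normoxia change of GGPS1, 0.15, became -0.02 when libraries were scaled by the median of ratios, and -0.36 less the median of its 50 neighbours, 0.51, so its direction was not stable. Less the neighbours' median its hypoxia change went from -0.20 to -0.56. Under that scaling the genes compared split into 9.82% higher and 10.1% lower for TET1-si under hypoxia, and into 9.42% and 7.41% under normoxia.

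**Figure D2:**
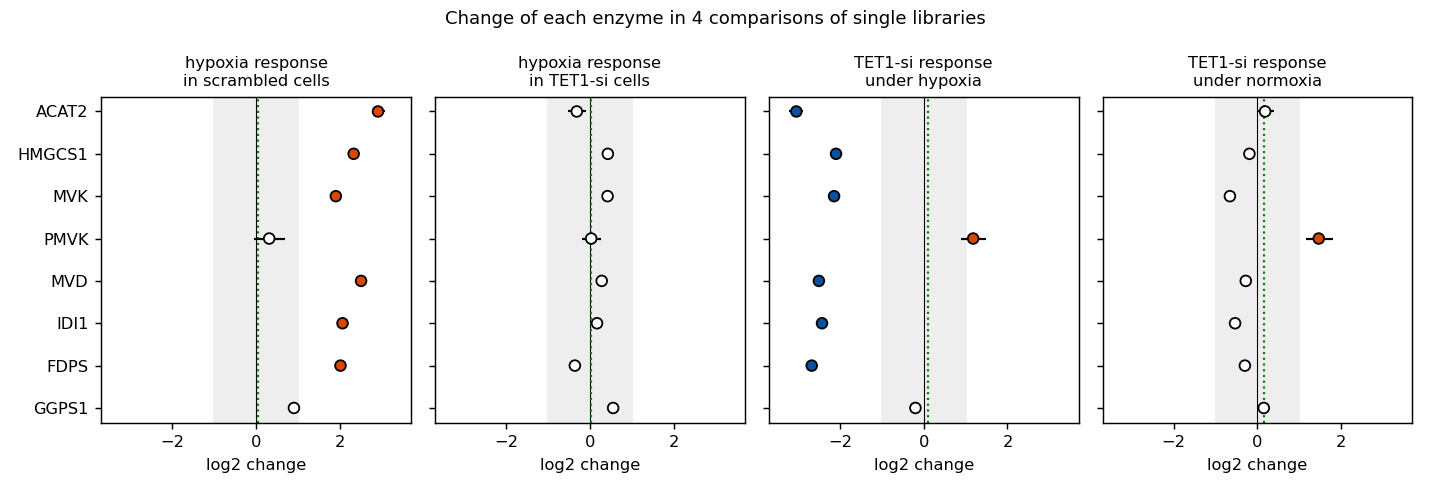
Log2 change of each enzyme in the 4 comparisons of single libraries, with the 95% counting interval as a bar, filled points at or past 2-fold, the range short of 2-fold shaded and the median of all genes compared dotted. In the comparison of H-scr with N-scr 6 points lie at 1.90 or above, in that of H-si with H-scr the same 6 lie at -2.09 or below, and PMVK alone is filled in the TET1-si comparison under normoxia.

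The difference of hypoxia responses, TET1-si less scrambled, was below 0 for 8 of the 8 and at or below -1 for 6, beside 7.86% of the genes compared. None of the 8 was above 0, as were 44.6% of the genes compared, and none was at or above 1, as were 4.87%. It was -3.22 for ACAT2 (normal counting interval -3.49 to -2.98), -2.37 for FDPS, -2.22 for MVD, -1.90 for HMGCS1, -1.89 for IDI1 and -1.48 for MVK (interval -1.62 to -1.35). For GGPS1 it was -0.35 (interval -0.50 to -0.20), and for PMVK -0.28 with an interval of -0.71 to 0.14, so that no difference was detectable. The median of the 8 was -1.90, beside -0.06 over the genes compared. The comparisons of H-scr with N-scr and with H-si, and this difference, all use the H-scr library, so a deviation of that culture would enter each of them.

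**Figure D3:**
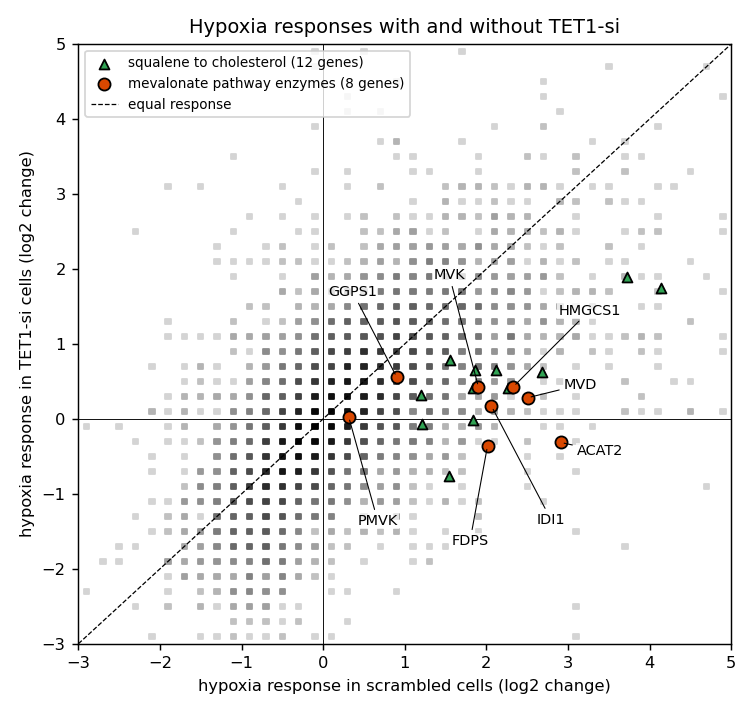
Hypoxia response (log2 change) in scrambled cells on the horizontal axis and in TET1-si cells on the vertical axis, with the enzymes as circles, the 12 enzymes from squalene to cholesterol as triangles, and the genes compared as grey squares, darker where a bin holds more genes (340 genes lie outside the axes). ACAT2, HMGCS1, MVK, MVD, IDI1 and FDPS lie between 1.90 and 2.91 across and between -0.36 and 0.43 up, far below the dashed line of equal response, and GGPS1 and PMVK lie near it.

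The study selected genes by 3 inequalities between FPKM values: the hypoxic scrambled level had to exceed both 2 times its TET1-si counterpart and the normoxic scrambled level, and the latter had to be no lower than normoxic TET1-si. HMGCS1, MVK, MVD, IDI1 and FDPS met all 3, which is 5 of the 8, beside 3.84% of the genes compared and 4.33% of all rows. ACAT2, which had the lowest TET1-si change under hypoxia of the 8, missed only the last one, since N-scr stood at 0.881 times N-si. That ratio lay within counting error of 1, as the interval of its TET1-si change under normoxia (-0.02 to 0.39) spans 0. GGPS1 failed the first and the last, and so did PMVK. The study applied these rules to the same libraries, reported cholesterol metabolic process among the groups they gave, and named FDPS in it. The number of enzymes that met them is therefore no independent support. Applied as stated, the inequalities passed 578 of the genes compared and 2687 of all rows. Neither is the number of genes the study reported, so its selection was not exactly reproduced here.

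The genes beside the enzymes in the pathway were taken as lists. The enzymes from squalene to cholesterol shared part of the pattern of the 6. In H-scr 12 of 12 were at least 2-fold higher than in N-scr (median 1.85), as were 12.9% of the genes compared. In H-si 11 of 12 were 2-fold lower than in H-scr (median -2.03), as were 8.35%. In TET1-si cells 2 of the 12 were at least 2-fold higher under hypoxia, as were 12.5% of the genes compared and none of the 8. These were LSS (lanosterol synthase), at 1.89, and TM7SF2 (a sterol reductase), at 1.75. Levels outside H-scr were less even for some, such as TM7SF2, at 2.40 FPKM for N-scr, 5.75 for N-si and 19.5 for H-si. Under normoxia, where 60.3% of the genes compared were above 0, the TET1-si changes of the 12 had a median of -0.57, with 9 below 0. They ran from -1.29 (CYP51A1) to 1.23 (TM7SF2). SC5D, a desaturase near the end of the route, was the one not 2-fold lower in H-si than in H-scr, at -0.76. The median difference of hypoxia responses was -1.65 for the 12, with 10 of 12 at or below -1, beside 7.86% of the genes compared.

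Among genes of sterol sensing, INSIG1, which holds the SREBP complex in the endoplasmic reticulum, had a hypoxia response of 2.86 in scrambled and 1.46 in TET1-si cells. MBTPS2, a protease that releases SREBP, stood between 11.4 and 15.2 FPKM in the 4 libraries.

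Among 5 genes of acetyl-CoA supply, 3 were 2-fold higher in H-scr than in N-scr, as were 12.9% of the genes compared. Also 3 were 2-fold lower in H-si than in H-scr, as were 8.35%. ACSS2, which makes cytosolic acetyl-CoA from acetate, measured 286 FPKM for H-scr, 53.5 for H-si, 10.0 for N-scr and 28.2 for N-si. Its difference of hypoxia responses, -3.90 (interval -4.06 to -3.77), was larger in size than that of any of the 8. ACLY, which makes acetyl-CoA from citrate, responded by 1.74 in scrambled cells and by -0.67 with TET1-si, so that like ACAT2 and FDPS it changed direction. In the list from squalene to cholesterol EBP did so as well, at 1.54 and -0.76. CYP51A1 and NSDHL of that list were just below 0 with TET1-si, at -0.01 and -0.06. ACAT1, the mitochondrial thiolase, had a hypoxia response of -0.87 in scrambled and in TET1-si cells, opposite in direction to ACAT2 in scrambled cells and in the same direction with TET1-si.

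The non-sterol arms did not share the pattern of the 6. The list of isoprenoid use holds 15 genes (chain elongation, prenyl transfer and processing). None was 2-fold higher in H-scr than in N-scr, as were 12.9% of the genes compared. Of the 15, 3 were 2-fold lower, as were 4.53%, and the median was -0.41. ICMT, which methylates prenylated cysteines, had the lowest TET1-si change of the list, -2.44 under hypoxia and -1.64 under normoxia. None of 11 prenylated small GTPases was 2-fold changed in any comparison, beside 17.4% to 21.2% of the genes compared. Their medians lay between -0.21 and 0.01 in the 4 comparisons.

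**Figure D4:**
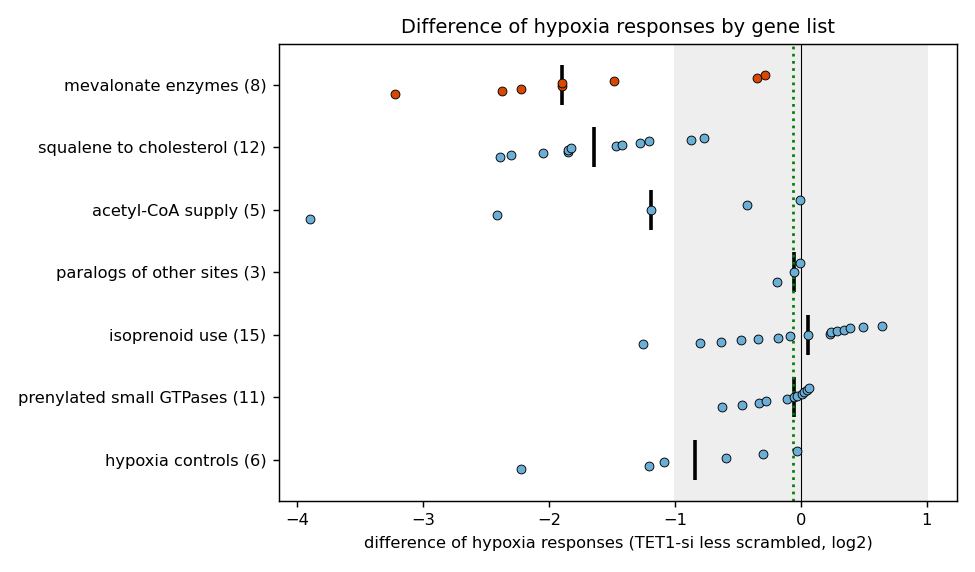
Difference of hypoxia responses (TET1-si less scrambled, log2) for each gene of the lists, with the number of genes compared in brackets, a black bar at the list median, the dotted line at the median of all genes compared and the range short of 2-fold shaded. The medians are -1.90 for the mevalonate enzymes and -1.65 from squalene to cholesterol, and 0.06 for isoprenoid use and -0.06 for the small GTPases.

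The genes of a short list of hypoxia targets were higher under hypoxia in both cell states, by less with TET1-si. Of 6 known hypoxia targets 5 were 2-fold higher in H-scr than in N-scr (median 3.55), as were 12.9% of the genes compared. In H-si against N-si 4 were 2-fold higher (median 2.04), as were 12.5%. With a pseudocount of 1 the response of CA9 (carbonic anhydrase IX) in TET1-si cells went from 2.60 to 0.59, which leaves 3. ADM responded by 0.76 in scrambled and 0.73 in TET1-si cells, short of 2-fold. The median difference of hypoxia responses was -0.84, beside -0.06 over the genes compared. The difference was below 0 for 6 of the 6, and above 0 for 44.6% of the genes compared. It was at or below -1 for 3 of the 6, CA9 (-2.22), EGLN3 (-1.21) and BNIP3 (-1.09), as for 7.86% of the genes compared. NDRG1, a stress-induced target, responded by 4.96 in scrambled and 4.36 in TET1-si cells. CA9 was highest in H-scr as the 6 enzymes were, at 7.82 FPKM on about 256 reads, against 0.51 FPKM on about 15 reads in H-si, 0.18 FPKM on about 6 reads in N-scr and a listed 0 in N-si.

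Some markers of the labelled epithelial cell type moved with the knockdown. All 8 epithelial markers had a mean of at least 1 FPKM, and their summed level was 10155 FPKM for H-scr, 4511 for H-si, 7451 for N-scr and 2589 for N-si. That sum is mostly keratin. Of the 8 markers 4 were 2-fold lower with TET1-si under hypoxia, as were 8.35% of the genes compared. Under normoxia 4 were 2-fold lower, as were 5.56%. The adhesion molecules EPCAM and CDH1 were instead somewhat higher with TET1-si, EPCAM by 0.68 under hypoxia and 0.41 under normoxia and CDH1 by 0.45 and 0.57. TP63, a squamous transcription factor, changed by -0.04 under hypoxia and -0.27 under normoxia. KRT14, a basal keratin, stood at 99.9 FPKM for H-scr against 1.41 for H-si, and at 42.1 for N-scr against 0.49 for N-si. Of 8 markers of fibroblasts, endothelial cells and leukocytes, 7 were matched, with summed levels of 109 FPKM for H-si, 64.4 for H-scr, 62.1 for N-si and 35.3 for N-scr. CD3E was listed at 0 in all 4 libraries, PTPRC reached at most 0.01 FPKM, PDGFRB 0.02 and COL3A1 0.24. CD68, a leukocyte marker of the list, was present in every library, from 19.8 FPKM for H-scr to 26.8 for H-si. In N-scr it held 21.3 of the summed 35.3 FPKM. CDH5, an endothelial cadherin, ranged from 8.75 FPKM for N-scr to 45.5 for H-si, and COL1A1, a collagen chain, from 5.29 FPKM for N-scr to 37.0 for H-si. The part of these marker changes in the results was not tested.

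The place of each enzyme in the genome was set against the 50 nearest protein-coding genes compared. Around PMVK their median TET1-si change was 0.29 under hypoxia, with 38 of 50 above 0, and 0.19 under normoxia, with 39 of 50 above 0. Over all genes compared, 56.5% were above 0 under hypoxia and 60.3% under normoxia. Only 2 of the 50 were at or above PMVK in either comparison, and less these medians PMVK was at 0.89 and 1.27. The nearest gene, PBXIP1, 7084 bp away, was higher in both TET1-si libraries as well, by 0.98 under hypoxia and 1.44 under normoxia, but unlike PMVK it responded to hypoxia, by 2.62 in scrambled and 2.15 in TET1-si cells. FDPS lies 369 kb from PMVK and shares 37 of those 50 neighbours. Its own neighbours had a median TET1-si change of 0.39 under hypoxia, and FDPS, at -2.67, lay below each of them. ACAT2, MVD and IDI1 were likewise below each of their 50 neighbours in that comparison, whereas for HMGCS1 and MVK 2 and 1 of the 50 lay lower.

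**Figure D5:**
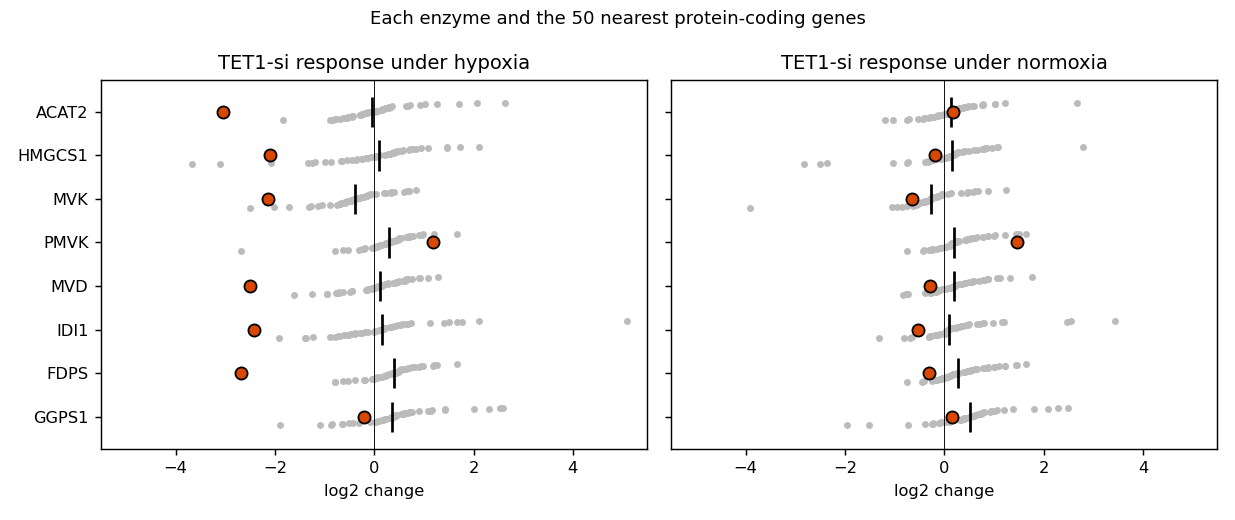
TET1-si change (log2) of each enzyme (large point) and of its 50 nearest protein-coding genes compared (grey points, with a bar at their median), under hypoxia on the left and under normoxia on the right. On the left ACAT2, MVD, IDI1 and FDPS lie below every neighbour, and PMVK lies near the upper end of its neighbours in both panels.

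Genes with profiles like the mean of the 8 were sought among 9455 protein-coding genes with a mean of at least 5 FPKM, by the Euclidean distance of log2 levels over the 4 libraries, each gene centred on its own mean. The 10 nearest were IFIT3, IFIT1, ISG20, MAFF, TDRD7, CCDC64, PARP9, FAM45A, C14orf1 and DRAM1, at distances of 0.21 to 0.44. IFIT3, IFIT1, ISG20 and PARP9 are interferon-stimulated genes, and C14orf1 (ERG28) is a scaffold of sterol demethylation. IFIT3, the nearest, measured 148 FPKM for H-scr, 52.9 for H-si, 44.8 for N-scr and 47.8 for N-si. Of the enzymes from squalene to cholesterol, NSDHL came nearest at rank 23, followed by FDFT1 at 25, and SREBF1, an SREBP gene, was at rank 30. The enzymes' own distances from their mean ran from 0.46 (HMGCS1) to 0.98 (ACAT2) for the 6, and were 1.13 for GGPS1 and 2.46 for PMVK. With 4 libraries a profile has few degrees of freedom, and likeness here is a description.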

How the data were processed

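RNA-Seq of FADU cells gave 4 libraries, 1 per group, named from the sample labels. The authors prepared TruSeq mRNA libraries, sequenced 100 bp reads (single end per the labels, paired end in their methods), and ran TopHat and Cufflinks on hg19 with Ensembl annotations. The values deposited are FPKM per gene. Tool versions, strandedness, filters and the Ensembl release are not given in the sources used here.

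Levels were compared as log2(FPKM + 0.1) with Python 3.11.15, pandas 2.3.3, numpy 2.4.6 and SciPy 1.17.1. Genes compared lay on chromosomes, had their ID on 1 row (111 IDs on several rows were left out) and a mean FPKM of at least 1. Depth was recovered from low FPKM values of single-exon genes, of which 96.5% to 96.8% were whole reads within a tolerance of 0.05. Approximate reads are FPKM times depth times canonical transcript length (GENCODE) less 214 bp. Clopper-Pearson intervals rest on these reads, and the interval of a difference of responses is a normal one. No count test was run, since FPKM are not counts and no group had a replicate. The scripts were tested on simulated data.

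Named were the 8 enzymes, their neighbours, list genes beside an enzyme or at the ends of a list's range, and the 10 nearest profiles. The enzymes and lists were chosen with earlier results of these data known. Alternatives were other pseudocounts, scalings, filters and subtraction of the regional median. The promoter sequences are RefSeq's, and hg19 and GRCh38.p14 coordinates were not mixed. Some genes of the lists are not reported here.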

Additional observations from a re-analysis of the deposited data

Results flagged for a closer look

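With 1 library per group, results of the enzymes were set apart where a gene moved in opposite directions in the 2 arms of a comparison, and the difference was not tested. Genes of the other lists were not screened in this way. ACAT2 was higher under hypoxia in scrambled cells and lower in TET1-si cells, a difference of -3.22 on the log2 scale. It was also lower with TET1-si under hypoxia and higher under normoxia, a difference of 3.22 from the same 4 values, and the counting interval of the normoxia change spans 0. FDPS was higher under hypoxia in scrambled cells and lower in TET1-si cells, a difference of -2.37, with counting intervals on opposite sides of 0. GGPS1 was slightly lower with TET1-si under hypoxia and slightly higher under normoxia, a difference of 0.35, and the normoxia change turned to -0.02 under median-of-ratios scaling and to -0.36 less its regional median.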

How the results depend on the processing

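The numbers of enzymes past 2-fold and the medians kept their direction under every alternative run. The median change of the enzymes was set against the median lower and the median upper counting bound of the single enzymes. These bounds are not an interval of the median itself, and it moved beyond them as follows. Under median-of-ratios scaling it went to -2.41 for TET1-si under hypoxia and -0.40 under normoxia. Upper-quartile scaling took it to 0.33 for hypoxia in TET1-si cells and -0.36 for TET1-si under normoxia. Scaling to TPM took it to 2.16 and 0.36 for hypoxia in scrambled and TET1-si cells. Less the regional median it went to -2.39 and -0.38 for TET1-si under hypoxia and normoxia. Scaling moved the median of all genes compared by over 0.1 in these cases: for TET1-si under normoxia from 0.15 to -0.0043 (median of ratios) or 0.03 (upper quartile), for TET1-si under hypoxia from 0.10 to -0.0078 (median of ratios), for hypoxia in TET1-si cells from 0.03 to 0.13 (upper quartile) or 0.16 (TPM), and for hypoxia in scrambled cells from 0.05 to 0.16 (TPM). Over single genes and alternatives, 1611 values stayed within their counting interval, 666 moved beyond it and no 2-fold change took the other direction. Of single enzymes, GGPS1 passed 2-fold under hypoxia in scrambled cells with TPM scaling (1.02) or less its regional median (1.03), and PMVK fell short of it for TET1-si under hypoxia less its regional median (0.89). Without the filter on mean FPKM, the share of all genes 2-fold changed was 10.9%, 12.6%, 13.0% and 10.6% for hypoxia in scrambled and TET1-si cells and TET1-si under hypoxia and normoxia, against 17.4%, 21.2%, 20.4% and 17.7%. The rule that H-scr be at least 2-fold above each other library was chosen after seeing the data. No paired analysis was possible because each group had 1 library, and for the same reason no replicate could be left out. Reads were fewest for PMVK, whose intervals were the widest.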
